A study of Mus musculus with 2 samples.

Results

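Mid to late pachytene spermatocytes were taken from single-cell RNA libraries of whole dissociated mouse testis as barcodes that held both Piwil1 and Ccna1 transcripts. A barcode marks 1 droplet, and a unique molecular identifier (UMI) marks 1 captured RNA molecule. A member had 5000 or more UMIs, at most 10% mitochondrial UMIs, at least 5 Piwil1 UMIs making up 0.01% or more of its UMIs, and at least 1 Ccna1 UMI. Its Piwil1 UMIs were at least equal to and under 10 times its Ccna1 UMIs, and its Acrv1 UMIs were fewer than the sum of both. The rule found 558 members among 38009 barcodes, 224 of 17408 in the control and 334 of 20601 in the Dot1L cKO. The members were thus chosen by their Piwil1, Ccna1 and Acrv1 counts, depth and mitochondrial share, and these values are given as descriptions.

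Each genotype was 1 library, so no test was possible and none is given. The control mouse genotype was Dot1L fl/+ and Cre-negative, with 1 floxed and 1 wild-type allele. The Dot1L cKO genotype was Dot1L fl/delta with Ddx4-Cre, a recombinase driven by the promoter of a germ cell gene. Age, the number of animals and the part of Dot1l that is floxed are not given in the sources used here. Genotype, animal and library cannot be told apart in any difference below, and every interval is a 95% exact interval that covers counting error only.

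Pachytene is the long stage of meiotic prophase in which homologous chromosomes are joined along their length by the synaptonemal complex and crossovers mature. PIWIL1 is the Argonaute protein that binds the abundant small piRNAs of this stage, and cyclin A1 is a germline cyclin needed to leave it. The X and Y are transcriptionally silenced in pachytene, and autosomal copies of several X-linked genes are expressed in their place. DOT1L is the histone methyltransferase that modifies lysine 79 of histone H3 in transcribed genes.

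The promoters of Piwil1, one of the genes that defined the cells, and of Pou5f2, the gene that led them without being in the rule, are shown because A-MYB, encoded by Mybl1, is the known activator of pachytene transcription. Each run is the 250 bases before the RefSeq start on GRCm38.p6, read 5′ to 3′ along the gene. Piwil1 is on the plus strand at chr5:128735996-128736245 and Pou5f2 on the plus strand at chr13:78024652-78024901. Capitals mark matches on either strand to the MYB element, searched as TAACGG and as TAACTG and also as CAACGG and as CAACTG, and the matches marked do not overlap.
Piwil1: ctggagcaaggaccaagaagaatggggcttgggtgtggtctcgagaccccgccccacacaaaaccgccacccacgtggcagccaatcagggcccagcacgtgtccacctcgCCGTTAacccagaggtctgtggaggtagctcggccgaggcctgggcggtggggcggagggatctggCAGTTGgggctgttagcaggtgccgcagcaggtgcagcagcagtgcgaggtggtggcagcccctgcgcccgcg
Pou5f2: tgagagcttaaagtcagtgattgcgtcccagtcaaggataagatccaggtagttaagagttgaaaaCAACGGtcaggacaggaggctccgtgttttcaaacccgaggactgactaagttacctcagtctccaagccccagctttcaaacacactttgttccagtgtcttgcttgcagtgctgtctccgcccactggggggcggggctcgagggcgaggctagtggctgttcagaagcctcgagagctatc
Piwil1 held 2 matches, 139 and 73 bases before the start, and Pou5f2 held 1, 184 bases before it, while the same window of Ccna1 held 0. Among all 32851 promoters, 7773 (23.7%) held a match in the same length. The share was 38.1% (8 of 21) among piRNA pathway and germ granule genes, 47.1% (8 of 17) among synaptonemal complex and cohesin genes, 30.4% (7 of 23) among axoneme and flagellum genes, and 18.2% (2 of 11) among the leading genes below. A match is a string of letters and not a measured binding site. Mybl1 RNA itself was at 51.9 CPM (UMIs of the gene per 1000000 summed UMIs of the members) in control and 71.2 CPM in cKO cells, a log2 ratio of 0.46 (interval 0.32 to 0.60).

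The members were deep barcodes. They held 12663340 UMIs in the control (median 56725 per cell, from 5619 to 143859) and 15557878 in the cKO (median 47443.5, from 5033 to 252126), with a median of 7065.5 and 7032 genes. Median mitochondrial shares were 2.05% and 2.10%. Median Piwil1 was 19 UMIs per control member and 16 per cKO member, and median Ccna1 was 6 in both. Near the limits, 6 control and 34 cKO members held a single Ccna1 UMI. Ratios of Piwil1 to Ccna1 of 8 to under 10 were found in 16 and 26 members, while 10 and 28 barcodes lay just outside, at 10 to under 12. At the lower end, 22 and 31 members had ratios of 1 to under 1.2, and 16 and 26 barcodes lay outside at 0.8 to under 1. The libraries shared 102 barcode sequences, and no barcode was a member in both. No doublet caller was run.

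Of 11 pachytene markers, Piwil1 and Ccna1 were part of the rule and check nothing. Of the other 9, 7 were above the other barcodes that passed the depth and mitochondrial limits, in both libraries. These 9 summed to 13403 CPM in control members against 8239 in the other barcodes, and to 12358 against 8284 in the cKO. Hspa2, the meiotic chaperone, was at 1410 CPM in control and 1502 CPM in cKO members, and Ldhc, the testis lactate dehydrogenase, at 10384 and 9420. Spag6, an axoneme gene, and X-linked Nxf2, a nuclear RNA export factor, were below the other barcodes. The 10 leptotene and zygotene markers summed to 250.1 CPM in control and 421 CPM in cKO members, against 357 and 469 in the other barcodes. Tex101, a germ cell surface protein (112 and 241 CPM), and Ankrd31, a regulator of meiotic break sites (106 and 101 CPM), made up most of that sum, and Ankrd31 was above the other barcodes (85.2 and 93.2 CPM). Tex101 was below the other barcodes in the control (178 CPM) and above them in the cKO (228 CPM). Stra8, the gene of meiotic entry, had 1 and 2 UMIs, and Prdm9, which marks recombination sites, 8 and 13.

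Summed markers of other cells were below the other barcodes, and all but those of elongating spermatids were higher in the cKO members. The 10 round spermatid markers summed to 147 CPM in control and 259 CPM in cKO members, the 10 Sertoli markers to 31.9 and 112 CPM, the 7 Leydig markers to 4.11 and 29.3, and the 8 macrophage markers to 1.34 and 13.7. Spermatogonial markers summed to 11.6 and 19.9 CPM, mesenchymal and peritubular markers to 6.79 and 8.23, and endothelial markers to 2.92 and 4.24. Erythroid markers were at 0.237 and 0.514 CPM. Several of these sums were higher in the other cKO barcodes too. In the other barcodes of control and cKO Sertoli markers summed to 113 and 189 CPM, Leydig to 36.9 and 170, macrophage to 27.5 and 35.1, and erythroid to 0.776 and 12.3. Round spermatid markers went the other way there, at 2470 and 2238 CPM. In control members the Leydig genes Hsd3b1 and Lhcgr, the macrophage genes C1qa, C1qc and Cd74, and the spermatogonial genes Sall4 and Crabp1 had 0 UMIs. In the cKO each of these had at least 1 UMI. Other genes of the same lists were found in control members, led by Star with 47 UMIs, C1qb with 9 and Uchl1 with 66. Some markers were lower in the cKO, such as spermatogonial Zbtb16, with 21 and 10 UMIs, and peritubular Myh11, with 1 and 0. The 10 elongating spermatid markers, which lead the free RNA of a testis suspension, summed to 4869 and 4650 CPM, against 92073 and 57740 in the other barcodes.

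Those signals were concentrated in some cells. After these values were seen, members were also described without cells that carried over 0.02% of their UMIs from 59 markers of other cells, or over 1% from Tnp1, Tnp2, Prm1 and Prm2. This left out 51 of 224 control members (22.8%, 17.4 to 28.8) and 138 of 334 cKO members (41.3%, 35.98 to 46.8), leaving 173 and 196 marker-poor members. The cKO cells left out were shallower (median 32637 UMIs) than those kept (52906), and the control medians were 54631 and 56934. Results below are given for all members and, where they differ, for the marker-poor members.

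Members made up 3.41% (2.99 to 3.88) of control barcodes that passed the depth and mitochondrial limits and 5.12% (4.60 to 5.68) of cKO barcodes. Over barcodes with 5 or more Piwil1 UMIs the shares were 26.96% (23.96 to 30.1) and 28.7% (26.1 to 31.4), with a log2 ratio of 0.09 (−0.16 to 0.34). Over the members and their neighbours on the Piwil1 to Ccna1 scale, they were 19.6% and 20.8%. The 64 control and 96 cKO members with 5 to under 10 Piwil1 UMIs per Ccna1 UMI made up 28.6% and 28.7% of members, those at 2 to under 5 made up 40.2% and 39.2%, and those at 1 to under 2 made up 31.2% and 32.0%. The limit of 5000 UMIs sets the first denominator, since it was passed by 6659 of the control and 6814 of the cKO barcodes.

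Pou5f2, a testis POU-domain gene that the rule did not use, was the gene with the largest excess over other barcodes. It was at 255.8 CPM in control members against 24.1 in other barcodes, and at 209 against 31.8 in the cKO. Along the Piwil1 to Ccna1 scale it was at 75.2 CPM in control cells with 10 or more Piwil1 UMIs per Ccna1 UMI, then at 225, 275 and 255 CPM in the 3 ranges of members, and at 82.2 CPM where Ccna1 exceeded Piwil1. In the cKO the same order gave 56.5, 167, 213, 227 and 97.7 CPM. Pou5f2 was therefore highest inside the members in both libraries, with its top in the middle range in the control and in the last range in the cKO.

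The other leading genes were mostly genes known for roles outside the testis. Of 5577 genes with 20 or more CPM in members of each library, 37 were at least 4-fold above the other barcodes in both. Predicted, clone and rule genes, 9 in all, were passed over in the order. After Pou5f2 the next named was Trhde, a membrane peptidase (31.4 and 37.0 CPM in control and cKO members, against 5.91 and 6.96 in other barcodes), Dhdh, a dihydrodiol dehydrogenase (40.2 and 36.8 against 4.77 and 6.97), and Agtr1b, an angiotensin receptor (51.0 and 45.8 against 7.17 and 8.88). Npas3, a brain transcription factor, reached 216 and 226 CPM against 35.4 and 44.1, and Kcnq3, a potassium channel subunit, 143 and 162 CPM against 22.3 and 31.8. Tmcc3, Cdh24, Mir100hg, Speer4cos, Plxna2, Gem, Lhfpl3, Chdh and Efcab8 completed the 15, with the lower of their log2 excesses in the 2 libraries between 2.11 and 2.28. Speer4cos shares 88.9% of its 3′ end with other genes, so its reads are not assigned with certainty. These genes describe the cells chosen and are no test of them.

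Dot1l (chromosome 10, 80755206 to 80795461, plus strand) was lower in the cKO members. The gene had 1490 UMIs in control and 896 UMIs in cKO members, which is 118 and 57.6 CPM, a log2 ratio of −1.03 (−1.15 to −0.91). The control members held a median of 6 Dot1l UMIs and the cKO members 2. With each cell thinned to 20000 UMIs, Dot1l was found in 88.5% (83.5 to 92.4) of 218 control members and 63.8% (57.9 to 69.3) of 287 cKO members, with 6 and 47 shallower cells left out. Unthinned, the shares were 96.9% and 80.5%. Somatic barcodes, named by Leydig, macrophage or mesenchymal markers, held a Dot1l UMI in 6.17% and 7.14%, at a median depth of 2496 and 3109 UMIs. The 3′ tag does not show whether a Dot1l transcript lacks the floxed part, so it checks the label only in part.

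The log2 ratio of Dot1l was near 0 in the class before the members and lowest in the class after them. In cells with 10 or more Piwil1 UMIs per Ccna1 UMI Dot1l was at 62.9 CPM in control and 58.5 CPM in cKO cells, a log2 ratio of −0.10. Through the 3 ranges of members the control was at 102, 116 and 132 CPM and the cKO at 51.7, 62.7 and 55.5 CPM, and the log2 ratios were −0.99, −0.89 and −1.25. Where Ccna1 exceeded Piwil1 the levels were 125 and 30.1 CPM, with a log2 ratio of −2.06. Control levels were thus higher in each range of members than in the first class, while cKO levels lay on both sides of the first class and were lowest in the last. In the marker-poor members the levels were 119.6 and 65.0 CPM, with a log2 ratio of −0.88 (−1.02 to −0.74), and −0.76, −0.72 and −1.17 in the 3 ranges.

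**Figure D1:**
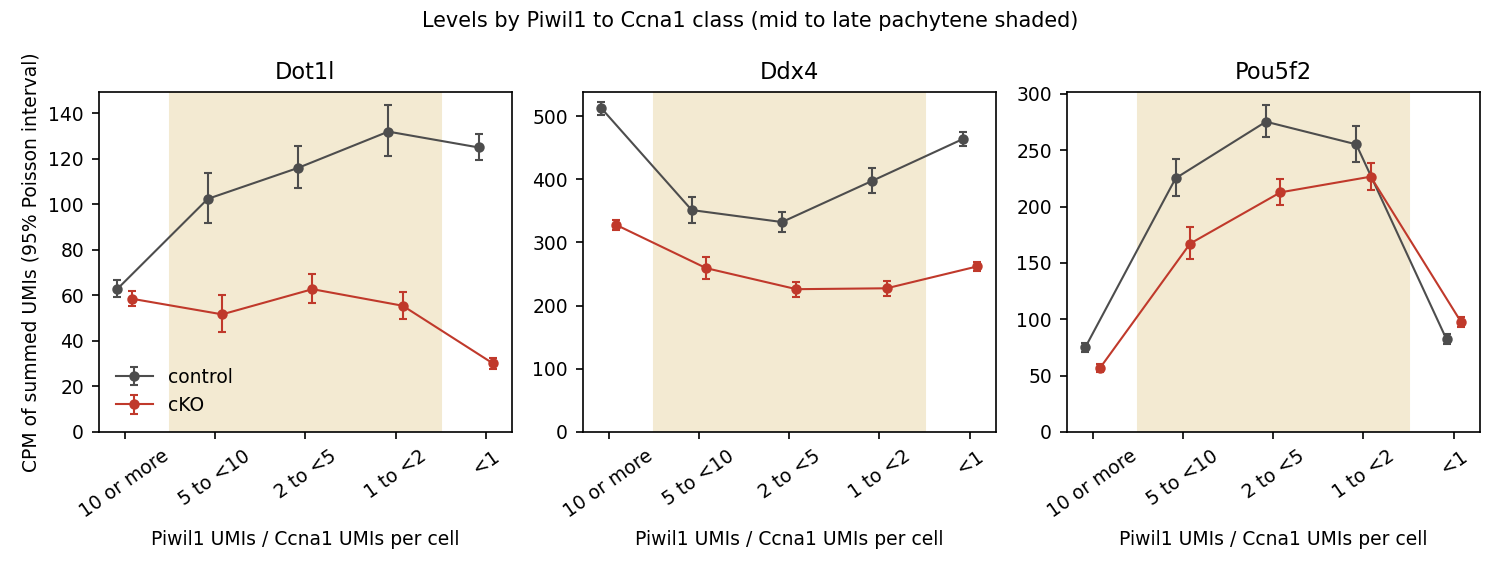
CPM of the summed UMIs (y axis, from 0, with 95% Poisson intervals) of Dot1l, Ddx4 and Pou5f2 in 5 classes of falling Piwil1 to Ccna1 ratio (x axis), control against Dot1L cKO, with the members shaded. Dot1l was at 62.9 and 58.5 CPM in the first class and at 125 and 30.1 CPM in the last.

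Ddx4, the germ cell RNA helicase whose promoter drives the Cre, was also lower in the cKO members, at 358 CPM in control and 233 CPM in cKO cells (log2 −0.62, −0.68 to −0.56). It was lower already in the first class, at 512 and 328 CPM, and in the last, at 463 and 262 CPM. Leaving out the marker-rich members gave −0.59.

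Among the partners of DOT1L, expression was nearly level. Mllt10, which encodes the cofactor AF10, was the most abundant of the list at 1365 and 1328 CPM (log2 −0.04), and Mllt1, which encodes ENL, was at 24.4 and 23.0 CPM. Mllt3, which encodes AF9, was higher in the cKO at 4.26 and 7.65 CPM (log2 0.84, 0.37 to 1.33), on 54 and 119 UMIs, and its somatic log2 ratio was 1.01. Of 12 measured members of the DOT1L list, 1 (8.33%) was over 1.5-fold higher and 1, Dot1l itself, lower, beside 20% and 4.4% of all genes.

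Across all genes the cKO members had more genes higher than lower. Of 12427 genes with 50 or more UMIs over both libraries, 2488 (20%) were over 1.5-fold higher in the cKO and 547 (4.4%) over 1.5-fold lower, with a median log2 ratio of 0.11. Over 2-fold, 1119 were higher and 176 lower, and over 4-fold, 185 and 29. Higher genes made up 15.7%, 15.7% and 18.9% of those measured in the ranges of 5 to under 10, 2 to under 5 and 1 to under 2, and lower genes 6.15%, 4.69% and 5.1%. In the class before the members 10.4% were higher and 3% lower, and in the class after them 26% and 5.43%. The direction was the same in all 3 Piwil1 to Ccna1 ranges for 2213 of the genes that were higher and 487 of those that were lower. Scaling by the median of ratios, which sets that median to 0, gave 2008 higher and 806 lower, so the share of calls that were higher went from 82.0% to 71.4%. In the marker-poor members 10673 genes were measured, of which 1210 (11.3%) were higher and 513 (4.81%) lower, and 1058 and 386 of these were also called over all members. In the somatic barcodes 17.6% of measured genes were higher and 6.29% lower. Of the 2488 genes, 1100 were measured there and 320 were past 1.5-fold in the same direction. Of the 547 genes, 56 were measured there and 16 were.

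**Figure D2:**
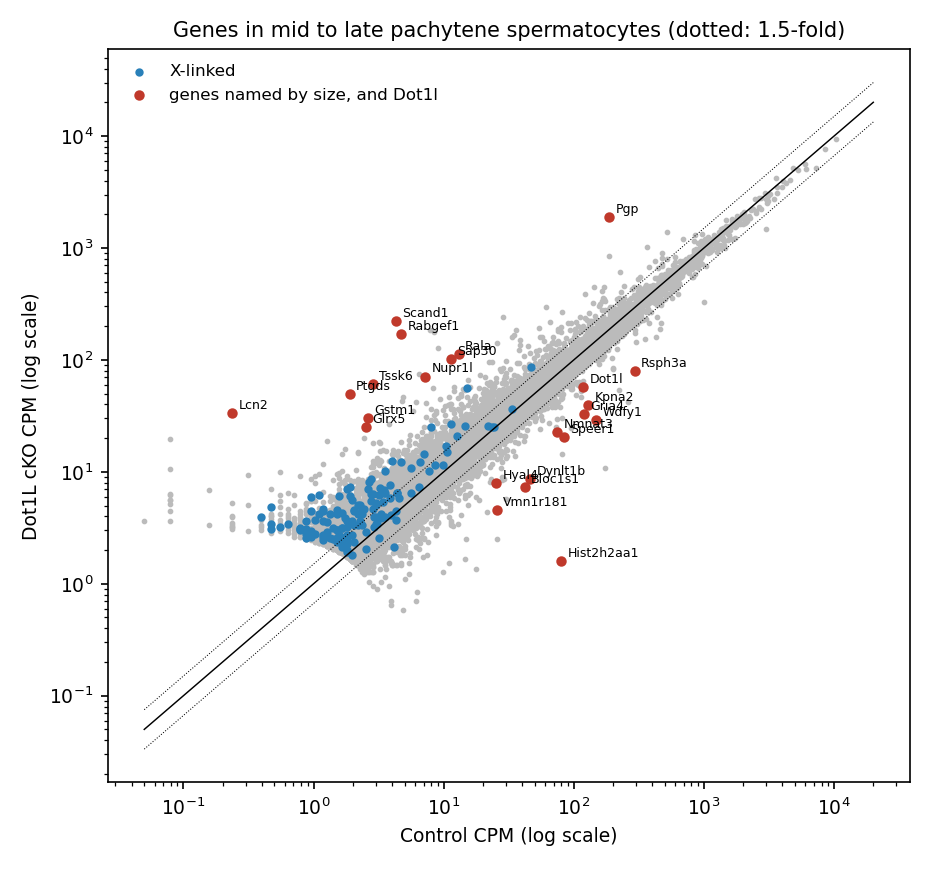
Summed CPM of each measured gene in control members (x axis, log scale) and Dot1L cKO members (y axis, log scale), with 1.5-fold lines dotted, X-linked genes in blue, and Dot1l and genes named by size in red. Of 12427 genes, 2488 lie above the upper line and 547 below the lower one.

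Sex chromosome RNA was scarce in the members of both libraries, and less scarce in the cKO. X-linked genes gave 8673 of the control members' UMIs (0.0685%) and 19622 of the cKO members' (0.126%), against 3.12% and 2.96% in somatic barcodes. Y-linked genes gave 0.00238% and 0.00488%. Cells with 10 or more Piwil1 UMIs per Ccna1 UMI held X-linked shares of 0.0824% and 0.124%, and cells with more Ccna1 than Piwil1 0.189% and 0.297%. In the control the 3 ranges of members were the lowest along the scale, at 0.0657%, 0.0702% and 0.0685%. In the cKO they were 0.142%, 0.0992% and 0.145%, of which the middle one alone was below the class before.

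The X-linked share was higher in the cKO across the range of cells. The median X-linked share per member was 0.0296% in the control (quartiles 0.0195 and 0.0602) and 0.0484% in the cKO (0.0291 and 0.167). Shares over 0.2% were found in 21 control members (9.38%, 5.90 to 14.0) and 70 cKO members (21.0%, 16.7 to 25.7). Of these, 20 of the 21 and 66 of the 70 were among the marker-rich cells left out above. Cells with more UMIs from other cells' markers had a higher X-linked share, with a Spearman correlation across cells of 0.62 over 224 control and 0.77 over 334 cKO members. Both measures come from the same cell's UMIs, and 2 of the 59 markers are X-linked. In the marker-poor members the X-linked shares were 0.0307% and 0.0379%, so the log2 ratio fell from 0.88 to 0.30. Their median shares were 0.0244% (quartiles 0.0177 and 0.0332) and 0.0326% (0.0245 and 0.0443), so each quartile was still higher in the cKO. Among the cells left out the median shares were 0.122% and 0.194%. The part of the marker-carrying droplets in the difference was not tested. With free RNA subtracted at its upper estimate, given below, the X-linked shares over all members fell to 0.0160% in the control and 0.0431% in the cKO. Most X-linked UMIs of the members were thus within what free RNA could supply, and its part in the difference was not tested either.

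**Figure D3:**
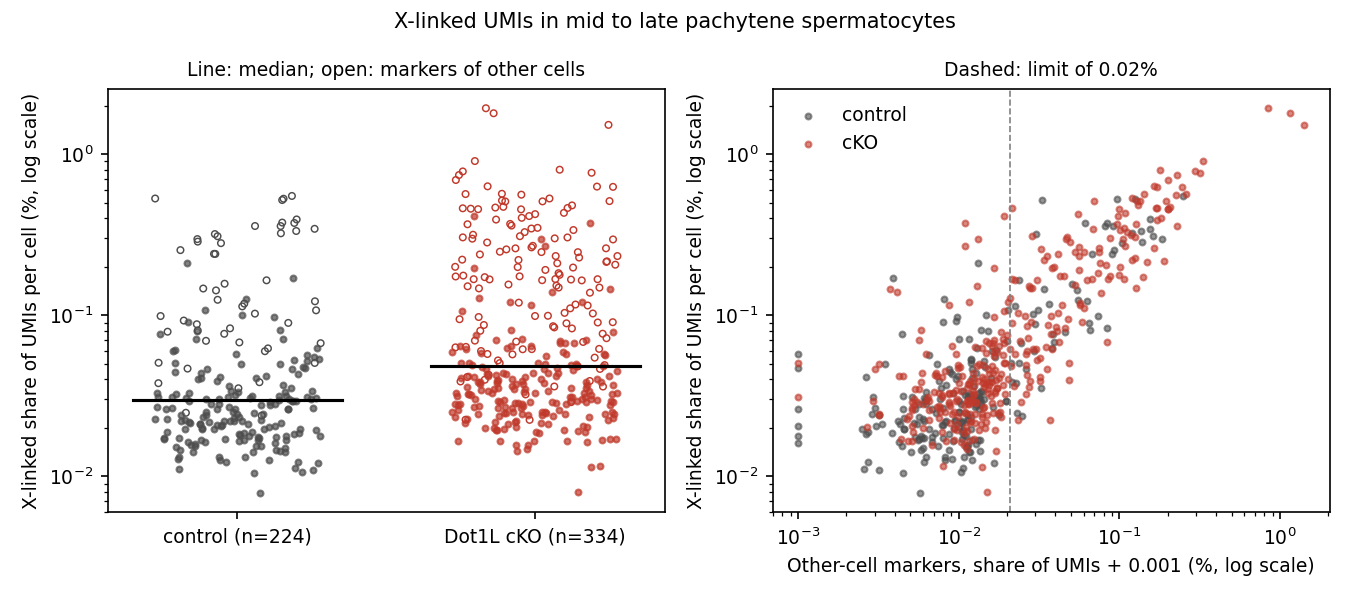
X-linked share of UMIs per member cell (y axes, percent, log scale) by library, with medians as lines and cells that carry other-cell markers as open points, and the same share against the share of other-cell markers (x axis, percent plus 0.001, log scale). Medians were 0.0296% and 0.0484%, and 20 of 21 control and 66 of 70 cKO cells over 0.2% are open points.

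By gene, 95 of 136 measured X-linked genes (69.9%) were over 1.5-fold higher in the cKO members and 1 was lower, with a median log2 ratio of 0.93. The shares of all genes were 20% and 4.4%. Without marker-rich cells 23 X-linked genes had 50 or more UMIs, of which 4 (17.4%) were higher and 1 lower, beside 11.3% and 4.81% of all genes. Tsga8, a spermatid gene and the X-linked gene with the most UMIs here, was at 46.6 and 86.6 CPM (log2 0.89), and at 24.7 and 37.2 in the marker-poor members (log2 0.59, 0.36 to 0.83). Tmsb4x, the widely expressed actin-binding thymosin, was at 15.1 and 55.7 CPM (log2 1.88), and at 7.78 and 11.5 without the marker-rich cells (log2 0.57). Akap4, the sperm fibrous sheath anchor, was nearly level at 33.4 and 36.4 CPM over all members (log2 0.13, −0.06 to 0.31) and lower at 15.2 and 9.76 CPM in the marker-poor ones (log2 −0.64, −1.02 to −0.26). Prdx4, a peroxiredoxin, was at 14.5 and 25.8 CPM over all members (log2 0.83) and at 4.65 and 6.74 in the marker-poor members (log2 0.53).

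Of the 10 measured autosomal copies that stand in for X-linked genes, 9 were within 1.5-fold in both directions. Pgk2 was at 168 and 194 CPM against 4.26 and 3.73 for X-linked Pgk1, both encoding phosphoglycerate kinase. Rpl10l, a ribosomal protein copy, was at 106 and 113 CPM against 2.76 and 6.36 for Rpl10, and Rpl39l at 1363 and 1311 against 2.21 and 5.01 for Rpl39. Slc25a31, the testis ADP/ATP carrier, was at 143 and 180 CPM against 1.11 and 4.24 for Slc25a5, and Cstf2t, a polyadenylation factor, at 26.5 and 23.7 against 0.869 and 3.66 for Cstf2. Rpl10 shares 67.6% of its 3′ end with other genes. Pdha2, a pyruvate dehydrogenase subunit, was at 227 and 257 CPM, Cetn1, a centrin, at 2401 and 2207, Timm8a2 at 67.1 and 57.1, and Utp14b at 17.8 and 18.2. Their X-linked counterparts Pdha1, Cetn2, Timm8a1 and Utp14a, both G6pdx and G6pd2, and Rbmx did not reach 50 UMIs.

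The remaining copy, Rbmxl2, a retrogene of the splicing regulator Rbmx, was higher in the cKO at 3.63 and 15.4 CPM (log2 2.09, 1.63 to 2.57), at 1.98 in the marker-poor members and 1.69 in the class before them. Of the 5 X-linked copies measured, 4 (80%) were higher, beside 20% of all genes, with a median log2 ratio of 1.203. Only 2 of the 5 kept 50 UMIs in the marker-poor members, and their median was −0.13.

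Factors known to build the silenced sex body were mostly within the limit. Of 18, 3 (16.7%) were higher and 0 lower, near the 20% and 4.4% of all genes, with a median log2 ratio of 0.26. Without marker-rich cells 1 of 16 (6.25%), Ddb2, was higher, beside 11.3% of all genes. Atr, the kinase of the pathway, was at 188 and 190.3 CPM, Mdc1, which spreads the damage signal, at 78.7 and 91.5, and H2afx, the histone variant it binds, at 65.9 and 80.5. Topbp1, an activator of ATR, was higher at 17.3 and 27.7 CPM (log2 0.68, 0.44 to 0.92), with 0.54 in the marker-poor members. Ddb2 was higher on 39 and 78 UMIs (log2 0.70). X-linked Scml2, a polycomb-like protein, was higher on 11 and 40 UMIs (log2 1.57, 0.58 to 2.68), and was at 0.95 on fewer than 50 UMIs in the marker-poor members.

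Of 21 regulators of late meiotic transcription measured, 5 (23.8%) were higher in the cKO and 0 lower, close to the 20% of all genes that were higher, and the median was 0.09 beside 0.11 for all genes. Without marker-rich cells 2 of 18 (11.1%) were higher, beside 11.3% of all genes. Tesmin, a cysteine-rich regulator of the pachytene programme, was at 92.9 and 185 CPM (log2 0.997, 0.898 to 1.096), and 0.81 in the marker-poor members. Its log2 ratio was 0.57 in the class before the members and 1.21 in the class after them. Hsf2, a heat shock transcription factor, was at 5.21 and 15.7 CPM (log2 1.59), with 1.76 in the marker-poor members. Taf7l and Taf4b, components of gonadal transcription machinery, were higher on 6 and 53 and on 21 and 58 UMIs, and Scml2 on 11 and 40. In the marker-poor members these 3 were at 2.53, 0.34 and 0.95, on 2 and 12, 13 and 17, and 7 and 14 UMIs. Rfx2, a regulator of ciliary and spermatid genes, was level at 90.6 and 94.2 CPM.

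The piRNA pathway was nearly level. Of 24 measured genes, 2 (8.33%) were higher and 1, Ddx4, lower, with a median log2 ratio of 0.15. The values for all genes were 20%, 4.4% and 0.11. Mael was at 710 and 704 CPM, Tdrd6 at 311 and 313, and Piwil2 at 76.8 and 82.9. Henmt1, the enzyme that methylates piRNA ends, was higher at 32.1 and 53.5 CPM (log2 0.74, 0.56 to 0.91), and at 0.79 in the marker-poor members. Mov10l1, the helicase that feeds piRNA precursors into processing, was higher at 53.2 and 81.6 CPM (log2 0.62), and at 0.46, within the limit, in the marker-poor members.

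Of 16 synaptonemal complex and cohesin genes measured, 4 (25%) were higher and 0 lower, beside 20% and 4.4% of all genes, with a median of 0.13. Without marker-rich cells 3 of 15 were higher and 2 lower. The axis genes Sycp3 (380.3 and 438 CPM, log2 0.20) and Sycp2 (386 and 424 CPM, log2 0.13) were within the limit. Sycp1, the transverse filament that zips the axes together, was at 102 and 189 CPM (log2 0.89, 0.79 to 0.98), which became 0.50 in the marker-poor members. The central element genes Syce1 (579.5 and 575 CPM, log2 −0.01), Syce2 (38.6 and 57.6 CPM, log2 0.58) and Syce3 (97.2 and 76.5 CPM) were within it as well. Other central element genes, Tex12 (25.3 and 68.8 CPM, log2 1.45) and Six6os1, listed as 4930447C04Rik (15.6 and 32.3 CPM, log2 1.05), were higher, and were at 0.97 and 0.68 in the marker-poor members. Trip13, the ATPase that strips HORMADs from joined axes, was at 4.58 and 10.3 CPM (log2 1.18, 1.05 in the marker-poor members). In those members the axis gene Hormad2 and the central element gene Syce3 were lower, at −0.88 and −0.71, against −0.52 and −0.35 over all members. Sycp1, Tex12, Six6os1 and Trip13 had log2 ratios of 0.06, 0.27, 0.07 and 0.28 in the class before the members and 0.56, 2.58, 1.42 and 0.92 in the class after them.

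Of 21 crossover and recombination genes measured, 8 (38.1%) were higher and 1 lower, beside 20% and 4.4% of all genes, with a median of 0.46. Without marker-rich cells 5 of 19 (26.3%) were higher, beside 11.3% of all genes, with a median of 0.28. Rnf212, a SUMO ligase that stabilises crossover sites, was at 8.29 and 16.5 CPM (log2 0.99, 0.66 to 1.33), and Ccnb1ip1, which encodes the ubiquitin ligase HEI10 that acts with it, at 7.66 and 15.4 (log2 1.01, 0.66 to 1.37). Hfm1, a crossover helicase, was at 14.7 and 25.3 CPM (log2 0.79), and Mcmdc2 at 4.50 and 9.38 (log2 1.06). These 4 were at 0.87, 0.71, 0.59 and 1.06 in the marker-poor members, and between −0.10 and 0.23 in the class before the members. Msh4 was higher on 54 and 108 UMIs, Spata22 on 32 and 68, Rnf212b on 17 and 39, and Dmc1, the recombinase of strand invasion, on 15 and 35. Msh4, Spata22 and Dmc1 were at 0.46, 0.18 and 0.27 in the marker-poor members, Dmc1 on 8 and 10 UMIs. Rnf212b was at 0.95 there, on 5 and 10 UMIs. Mus81, an endonuclease of the alternative crossover route, was lower at 18.0 and 11.3 CPM (log2 −0.68, −0.97 to −0.39), and at −0.79 in the marker-poor members.

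Genes of the meiotic divisions were within the limit with 2 exceptions among 28 measured, and their median was −0.11. Both exceptions were higher (7.14%), beside 20% of all genes. Ccnb2 was at 201 and 180 CPM, Cdk1 at 99.7 and 84.2, Plk1 at 46.4 and 35.03, and Ccnb1 at 44.0 and 38.7. Pkmyt1, the kinase that holds CDK1 inactive, was higher at 19.98 and 37.6 CPM (log2 0.91, 0.70 to 1.13), and at 0.72 in the marker-poor members. Ppp1cc, a protein phosphatase subunit needed for spermatogenesis, was at 187 and 853 CPM (log2 2.19), but 69.8% of its 3′ end is shared with other genes, so its counts are uncertain.

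Of 19 RNA-binding genes measured, 5 (26.3%) were higher and 0 lower, beside 20% and 4.4% of all genes, with a median of 0.14. Without marker-rich cells 4 (21.1%) were higher, beside 11.3% of all genes. Ybx1, a packaging protein of stored and translated messages, was at 689 and 1204 CPM (log2 0.81, 0.77 to 0.84), at 0.87 in the marker-poor members, 0.64 in the class before and 0.66 in somatic barcodes. Elavl1, which binds AU-rich messages, was at 33.3 and 62.3 CPM (log2 0.90), and Ythdc2, a helicase required for meiotic progression, at 7.34 and 20.7 (log2 1.49), with 0.84 and 1.36 in the marker-poor members. Dazl, the germline translation activator, was at 22.8 and 63.3 CPM (log2 1.47), but at 0.53 in the marker-poor members. Larp7, a guardian of the 7SK RNA, was at 809 and 555 CPM, a log2 ratio of −0.55 that was inside the limit of −0.58.

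**Figure D4:**
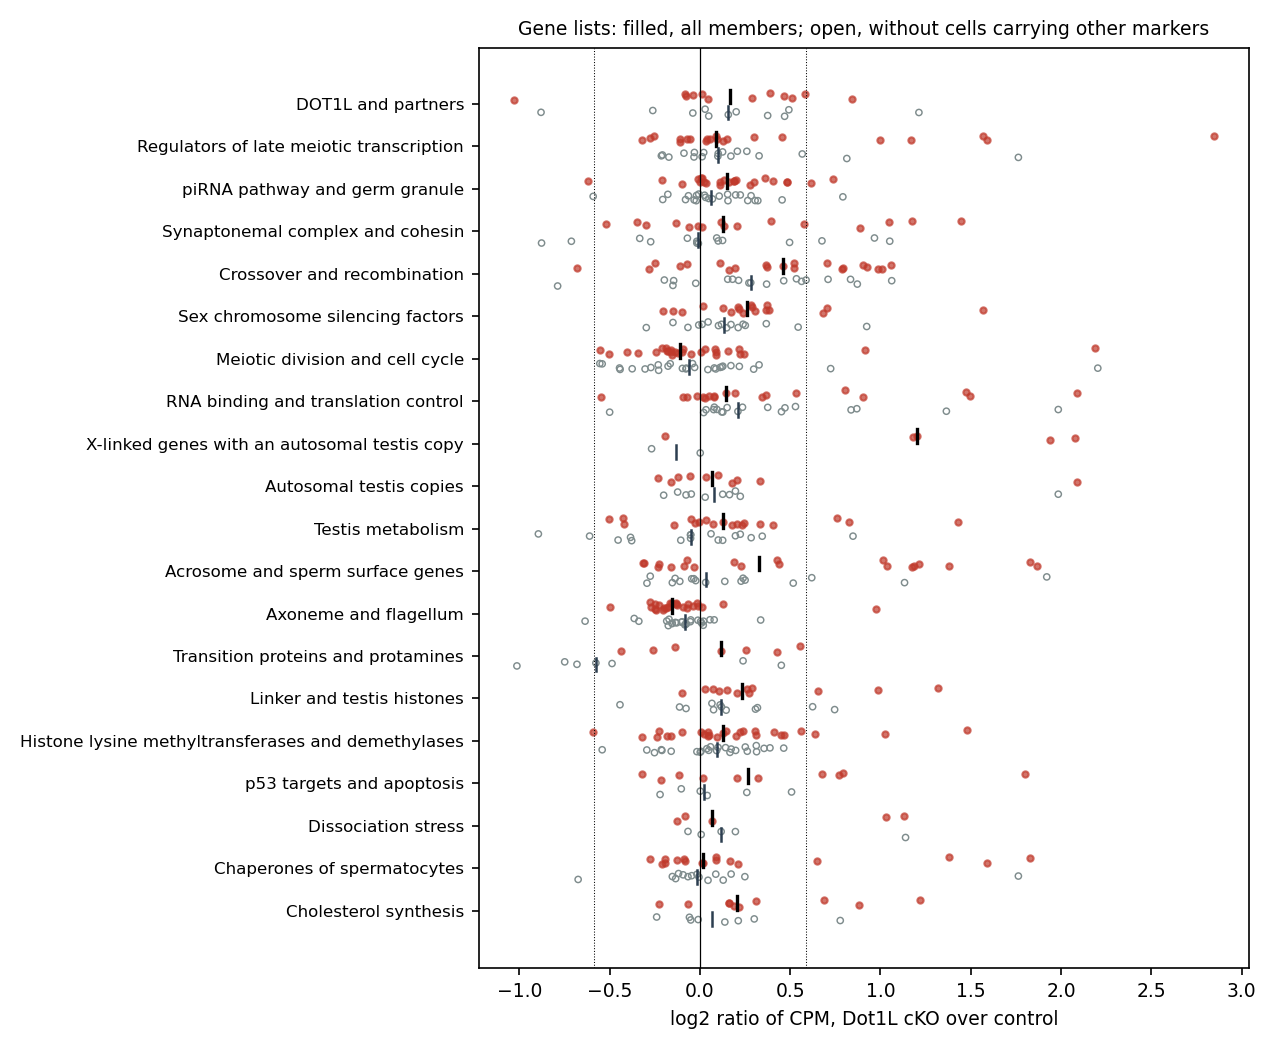
Log2 ratio of CPM, Dot1L cKO over control (x axis), of the measured genes of each list (rows), over all members (filled) and without the cells that carry other markers (open). The median of all genes was 0.11, and the lists farthest to the right were the X-linked copies (median 1.203, and −0.13 over 2 genes without the marker-rich cells), crossover and recombination (0.46 and 0.28) and acrosome genes (0.33 and 0.03).

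RNA of genes that act in spermatids was found in the members, and the part of free RNA in it was not tested. Of 20 acrosome and sperm surface genes, 8 (40%) were higher and 0 lower, beside 20% and 4.4% of all genes, with a median of 0.33. In the marker-poor members 3 of 17 (17.6%) were higher, beside 11.3% of all genes, with a median of 0.03. Of these genes 3 are also among the 59 markers by which cells were left out. These 3, Spaca1, Spaca7 and Izumo1, were at 19.9, 19.4 and 3.47 CPM in control members, against 331, 339 and 58.8 in the other barcodes. In cKO members they were at 45.0, 26.3 and 7.01 CPM, against 355, 263 and 46.8. Zpbp, an acrosomal protein that binds the egg coat, was at 163 and 335 CPM (log2 1.04, 0.96 to 1.11), and at 1.13 in the marker-poor members. Smap2, a trafficking factor of acrosome formation, was at 15.4 and 56.1 CPM (log2 1.86), and at 1.92 in those members. Spaca3 was at 17.9 and 41.4 CPM (log2 1.21), and at 0.62. Izumo1, higher over all members, cannot be assigned with certainty because its 3′ end is fully shared. Of 25 axoneme and flagellum genes, 1 (4%), Spag6, was higher and 0 lower, beside 20% and 4.4% of all genes, with a median of −0.16. In the marker-poor members 0 of 25 were higher and 1, Akap4, lower.

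Transition protein and protamine RNA, the most abundant of late spermatids, made up 0.443% and 0.413% of member UMIs, against 7.80% and 4.63% of all barcodes' UMIs. Of the 7 genes 0 were past the limit, with Prm1 at 1643 and 1214 CPM and Tnp1 at 515 and 430. Among the marker-poor members, which were chosen with 4 of these genes, Prm1, Prm2 and Tnp1 were lower. If all of it in the members were free RNA with the profile of all barcodes, free RNA of every gene would make up 5.68% and 8.92% of the members' UMIs.

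Testis metabolism genes were mostly within the limit. Of 19, 3 (15.8%) were higher (Cycs, Aldoart2 and Slc16a1) and 0 lower, beside 20% and 4.4% of all genes, with a median of 0.13. In the marker-poor members 1 of 17, Cycs, was higher and 2 were lower, Hk1 (log2 −0.61, −0.78 to −0.44) and Odf1 (log2 −0.89). Cycs, the somatic cytochrome c, was the clearest over all members at 4.03 and 10.9 CPM (log2 1.43, 0.85 in the marker-poor members). Aldoart2, an aldolase retrogene, was at 0.76 over all members and −0.05 in the marker-poor ones. Histone genes gave 3 higher of 12 (25%), beside 20% of all genes, with a median of 0.23. The linker histone gene H1f0 was among them, on 30 and 58 UMIs. In the marker-poor members 2 of 12 (16.7%) were higher, beside 11.3% of all genes. Hist1h2aa and Hist1h2ba, the testis H2A and H2B, were at 4.03 and 10.0 CPM (log2 1.32) and 5.45 and 10.8 CPM (log2 0.99), and at 0.75 and 0.62 in the marker-poor members. Hist1h1t, the testis linker histone, was level at 47.5 and 49.9 CPM. Of 27 other histone lysine methyltransferases and demethylases, 3 (11.1%) were higher, Suv39h2, Kdm6b and Setd1a, and 1, Setdb2, lower, with a median of 0.13. The shares of all genes were 20% and 4.4%. Suv39h2, a methyltransferase of histone H3 lysine 9 made in testis, had 26 and 89 UMIs (log2 1.48, 0.83 to 2.17), and was at 2.27 on fewer than 50 UMIs in the marker-poor members. In those members 0 of 25 measured were past the limit.

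Stress and death genes were sparse. Of 10 measured p53 target and apoptosis genes, 4 (40%) were higher on few UMIs, beside 20% of all genes, with a median of 0.26. Bax had 22 and 94 UMIs, Casp9 41 and 86, Chek1 25 and 49, and Cdkn1a 16 and 34. Among marker-poor members 6 were measured and 0 were past the limit. Of 5 genes of the dissociation stress response, Jun (9.71 and 19.9 CPM, log2 1.03) and Hspb1 (8.61 and 18.8 CPM, log2 1.13) were higher, with 0.96 and 0.95 in somatic barcodes and a list median of 0.07. That is 40% of the list, beside 20% of all genes. Jun was at 1.14 in the marker-poor members and Hspb1 at 0.20 (−0.22 to 0.62), within the limit. Chaperones gave 4 higher of 17 (23.5%: Hsf2, Calr3, Pdilt and Hspa8), near the 20% of all genes, with a median of 0.02. Without marker-rich cells Hsf2 alone of 15 was higher and Hspa1l lower, and Hspa8 was at 0.17. Cholesterol synthesis genes gave 3 higher of 10 (30%: Cyp51, Lss and Sc5d), beside 20% of all genes, with a median of 0.20. In the marker-poor members 1 of 8 (12.5%), Sc5d, was higher, beside 11.3% of all genes. Cyp51 was at 4.50 and 10.5 CPM (log2 1.22), and at 0.30 in the marker-poor members.

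The genes with the largest ratios were shared with the neighbouring classes. All 12 named highest and 12 named lowest were past 1.5-fold in each of the 3 member ranges and in the classes before and after. Scand1, a SCAN-domain protein gene on chromosome 2, had 54 UMIs in control and 3433 in cKO members, 4.26 and 221 CPM (log2 5.69, 5.31 to 6.11). A Scand1 UMI was found in 20.5% of control and 98.5% of cKO members. In somatic barcodes Scand1 had 1 and 387 UMIs. Rabgef1, an activator of the endosomal GTPase Rab5, had 60 and 2657 UMIs (log2 5.17) in the members and 5 and 173 in somatic barcodes. Pgp, phosphoglycolate phosphatase, was the most abundant of the 12 at 187 and 1901 CPM (log2 3.35, 3.29 to 3.41), with a somatic log2 ratio of 3.02.

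Sap30, a subunit of the SIN3 deacetylase complex, had 145 and 1590 UMIs (log2 3.16). It was found in 42.4% and 93.4% of members, and in somatic barcodes it had 0 and 20 UMIs. Tssk6, a testis-specific kinase (log2 4.42), Glrx5, a mitochondrial glutaredoxin (3.31), Nupr1l (3.30) and Rala, a small GTPase (3.12), were at 3.27, 3.22, 2.46 and 3.0999 in the marker-poor members. Of the 12 genes, 10 had 50 or more UMIs in somatic barcodes, and 8 of these were past 1.5-fold higher there too.

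Lcn2, a lipocalin, Ptgds, the prostaglandin D2 synthase, and Gstm1, a glutathione transferase, were found in the fewest cKO members of the 12. Lcn2 had 3 and 520 UMIs but was found in 1.34% and 7.78% of members, Ptgds was found in 8.93% and 13.2%, and Gstm1 in 13.4% and 19.2%. Lcn2 abounded outside the members, and in somatic barcodes it was at 9299 and 15094 CPM. Among marker-poor members it had 0 and 12 UMIs. Ptgds (24 and 775 UMIs, log2 4.72) and Gstm1 (33 and 473, log2 3.54) were at 0.74 and 0.46 in the marker-poor members, and at −0.45 and −0.59 in somatic barcodes.

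Of the 12 genes with the lowest ratios, 7 share most of their 3′ end with other genes and are uncertain, Hist2h2aa1, Bloc1s1, Dynlt1b, Speer1, Rsph3a and Kpna2 among them. Hist2h2aa1, an H2A gene with an identical copy, had 1009 and 25 UMIs (log2 −5.63), and 17 and 1 in somatic barcodes. The other 5 share under 50% of their 3′ end, Vmn1r181 6.65% and the rest 0. Vmn1r181, a vomeronasal receptor gene, was at 25.6 and 4.56 CPM (log2 −2.49), and Wdfy1, an endosomal adaptor, at 148 and 29.0 CPM (log2 −2.35), with a somatic value of −0.97. Gria4, an AMPA glutamate receptor subunit, was at 120.3 and 33.0 CPM (log2 −1.87, −2.01 to −1.72), found in 87.9% and 52.4% of members. Nmnat3, a mitochondrial NAD synthesis enzyme, was at 74.6 and 22.7 CPM (log2 −1.71), and Hyal4, a hyaluronidase family gene, at 25.3 and 7.97 CPM (log2 −1.67).

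Gria4 followed the members closely in the control. It was at 76.2 CPM where Piwil1 was 10 or more times Ccna1, at 112, 131 and 113 CPM in the 3 ranges, and at 48.4 CPM where Ccna1 exceeded Piwil1. In the cKO it was at 41.6 CPM in the first class and 29.3, 35.3 and 32.7 CPM in the members, so the rise into the members was not seen there. Its log2 ratio was −0.87 in the first class and −1.55 in the last, and somatic barcodes held 0 and 1 UMI.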

How the data were processed

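Whole dissociated testis was profiled with a 10x Genomics droplet kit that tags the 3′ end of RNA. Deposited values are raw UMI counts of each gene in each droplet. The file headers name Cell Ranger 7.0.0, and the submitters' processing notes name mm10 and Seurat 4.1.0. Members and gene lists were chosen with earlier results of these data known. Counts were summed over the members of each library and divided by their total (CPM). Log2 ratios carry exact conditional Poisson intervals and shares Clopper-Pearson intervals. Genes with 50 or more UMIs over both libraries were measured, and over 1.5-fold is a rule of size, not a test. Somatic barcodes had 10 or more UMIs and 1% or more from Leydig, macrophage or mesenchymal markers. Leydig markers led or tied in 41 of 81 control and 118 of 294 cKO somatic barcodes, macrophage markers in 27 and 126, and mesenchymal in 13 and 51. A 3′ end counts as shared where words of 40 bases in its last 400 bases occur in another gene. Genes named by size were the 12 highest and 12 lowest with 100 or more UMIs and 20 or more CPM, passing over 5 and 11 predicted, clone, mitochondrial, hemoglobin or rule genes. Of each 12, 1 gene is counted but not reported here. Leading genes were the first 15 by the lower log2 excess over other barcodes once 9 genes of those kinds were passed over. Up to 4 genes of each of 20 lists were named by size, and the others for their role, with values seen. Of 32285 genes, 32158 were found in the annotation. Python 3.11.15, numpy 2.4.6, scipy 1.17.1 and pandas 2.3.3 were used, and the code was tested on simulated counts. Doublets were not called or removed. Only 1 library per genotype was sequenced, so the spread between animals is unknown.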

Additional observations from a re-analysis of the deposited data

How the results depend on the processing

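With 1 library per genotype, no alternative can show the spread between animals. No paired analysis was possible because each group was 1 library and the labels carry no replicate numbers. Of the main values, 42 under other settings stayed near the reported value and 16 moved. The count of genes higher in the cKO was 1210 in the marker-poor members, and the counts of higher and lower genes were 6110 and 1792 with no count minimum and 571 and 140 at 500 or more UMIs, where fewer genes are tested. Dot1l was −0.88 in the marker-poor members. The log2 ratio of X-linked shares was 1.04 with each cell weighted equally, 1.43 with free RNA subtracted, 0.82 without the top 10% of cells by UMIs, 0.93 without cells over 1% transition protein and protamine UMIs, 0.63 under a stricter rule of 10 Piwil1 and 3 Ccna1 UMIs, and 0.30 in the marker-poor members. The value of 1.43 rests on shares that the subtraction took from 0.0685% to 0.0160% in control and from 0.126% to 0.0431% in cKO members. The log2 ratio of member shares was 0.091 over barcodes with 5 Piwil1 UMIs, 0.32 under the stricter rule, 0.19 for marker-poor members and 1.01, on 14 and 28 cells, with barcodes thinned to 5000 UMIs. In the marker-poor members, a setting chosen after seeing the data, the median of X-linked copies turned to −0.13, Aldoart2 to −0.050 and Rpl39 to −0.96. The cause was not tested. Among single genes, 798 values stayed, 166 moved and 2 reversed.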
